A study of Mus musculus with 15 samples.

Results

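Genes that make, sense, break down or pass on cyclic AMP (cAMP) were measured in astroglia sorted from 3 regions of the adult mouse brain. The set was listed by gene symbol and held 9 genes. They encode the Epac proteins (Rapgef3, Rapgef4), the receptors Adcyap1r1 and Adrb1, the adenylyl cyclases Adcy2 and Adcy8, the phosphodiesterases Pde4b and Pde7b and the protein kinase A subunit Prkar2b. Of these, 7 were matched to a probe set and are described among 18193 measured genes. No probe set is paired with Rapgef4 or Adrb1 in the annotation used, and these 2 genes were not analysed here. The set was selected on earlier results from these arrays, that is, on the log2 signals of the same regional comparisons given below. The differences of its members are therefore a description. The fit also called some of them, and those calls are counted below but not read as tests.

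All cells came from male mice aged 6 to 8 weeks of the genotype Gli1-CreER;GFAP-GFP;R26tdTomato. In these mice the Gli1 gene, a target of Sonic hedgehog, drives an inducible recombinase that switches on a red reporter, and the astroglial Gfap promoter drives a green one. The mice received 2 doses of 10 mg tamoxifen, and cells positive for Gli1 and GFAP reporters were sorted 3 weeks later from the subventricular zone (SVZ), the hippocampus or the cerebellum, with 5 arrays per region. Each array carried amplified RNA from 10 to 12 pooled mice, so the spread between arrays is that between pools, and no untreated or unlabelled cells served as a control. The series compared SVZ and hippocampus, which hold adult neural stem cells, with cerebellum and then with each other, and stem cell presence and brain region cannot be told apart in this design. In such sorted pools, fewer cells of a type and less RNA per cell cannot be told apart either.

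Cyclic AMP is made from ATP by adenylyl cyclases when a receptor at the membrane activates the stimulatory G protein, and phosphodiesterases break it down. It acts on protein kinase A, whose regulatory subunits release the catalytic subunits on binding it, on Epac proteins, which switch on the small GTPases of the Rap family, and on ion channels gated by cyclic nucleotides. Protein kinase A phosphorylates, among others, the transcription factor CREB and also acts as a brake on hedgehog signalling by promoting the processing of Gli proteins. Astroglia carry receptors for noradrenaline and for the peptide PACAP that raise cAMP.

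Median log2 signals of the arrays were 1.12 to 1.31, and a gene near that level is near the background. Probe sets with a log2 signal above 3 made up 15.1% to 19.5% of all on the SVZ arrays, 15.2% to 19.8% on the hippocampus arrays and 20.1% to 22.4% on the cerebellum arrays. Poly-A spike-in RNA, which is added to a sample and not made by cells, averaged 12.56 ± 0.85 (log2 signal, SD, n = 5) on SVZ arrays, 12.46 ± 0.55 on hippocampus arrays and 10.28 ± 1.60 on cerebellum arrays, and was lowest on cerebellum 5. All 10 astrocyte markers were above the highest array median in every region mean, and their mean level was 8.07 to 8.62 in SVZ, 7.71 to 8.88 in hippocampus and 8.39 to 9.62 in cerebellum. Single astrocyte markers differed between regions. S100b was lower by -3.41 ± 0.42 in SVZ and -3.67 ± 0.42 in hippocampus, and the glutamate transporter Slc1a3 by -1.83 ± 0.35 and -2.16 ± 0.35. Aldoc was lower in hippocampus by -0.90 ± 0.23, and Glul was higher in SVZ by 0.92 ± 0.22. Each difference below is in log2 units and carries the standard error (SE) of one limma fit over all 15 arrays.

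**Figure D1:**
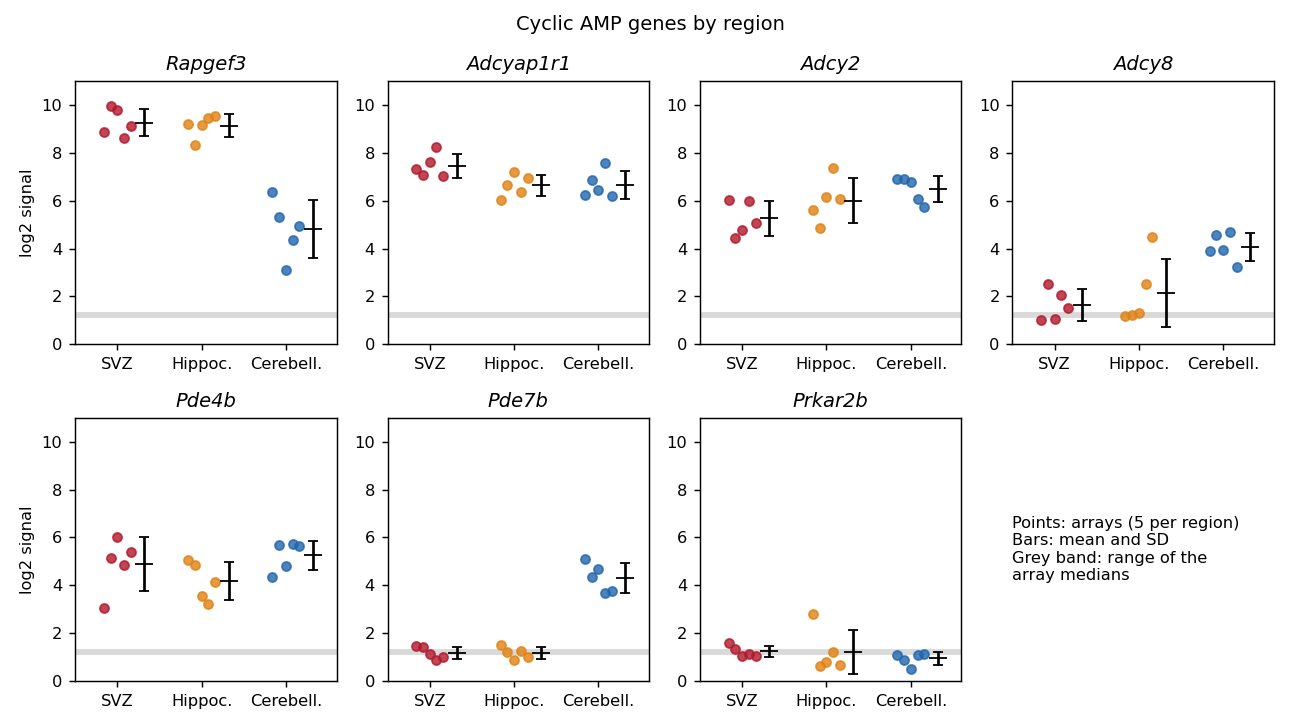
Log2 signal (vertical axis) of the 7 measured members on each array, by region. Points are arrays (5 per region), bars are region means with SD, and the grey band is the range of the array medians. The Rapgef3 points of SVZ and hippocampus lie at 8.31 or above and those of cerebellum at 6.35 or below, whereas the Pde7b points of SVZ and hippocampus lie at 1.5 or below and those of cerebellum at 3.66 or above.

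Rapgef3 and Pde7b had the largest regional differences of the set, in opposite directions, and their promoter windows are therefore shown. Each window runs from 250 bases before to 50 bases after a start site and is written 5′ to 3′ from RefSeq (mouse assembly GRCm38.p6, minus strand). Rapgef3 lies on chromosome 15 at 97744770 to 97768419 and its window is chr15:97767617-97767916. Pde7b lies on chromosome 10 at 20397052 to 20725078 and its window is chr10:20548279-20548578. On the minus strand a gene's 5′ end is its higher coordinate. The Pde7b window thus belongs to a start site far inside the gene. The Rapgef3 window also lies inside its gene, though nearer to the 5′ end at 97768419. No window at the 5′ end of either gene was available to search. Capitals mark the half-site of the cAMP response element.
Rapgef3: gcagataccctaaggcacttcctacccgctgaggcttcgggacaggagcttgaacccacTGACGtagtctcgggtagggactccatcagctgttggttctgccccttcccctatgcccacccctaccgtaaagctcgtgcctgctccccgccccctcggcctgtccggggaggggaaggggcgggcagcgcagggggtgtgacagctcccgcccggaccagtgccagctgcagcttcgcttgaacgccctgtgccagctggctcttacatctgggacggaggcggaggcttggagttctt
Pde7b: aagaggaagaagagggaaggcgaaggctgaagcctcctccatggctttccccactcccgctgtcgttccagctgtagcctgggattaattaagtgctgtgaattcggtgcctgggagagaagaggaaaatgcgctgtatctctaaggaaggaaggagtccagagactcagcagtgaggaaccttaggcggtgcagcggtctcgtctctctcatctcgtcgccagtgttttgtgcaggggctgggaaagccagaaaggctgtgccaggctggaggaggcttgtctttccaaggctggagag
The windows were searched on both strands for the full cAMP response element TGACGTCA, its half-site TGACG, which the full element contains, and the Gli site GACCACCCA. The half-site began at base -191 relative to the Rapgef3 start site, and none of the 3 motifs was found in the Pde7b window. Over all 32851 RefSeq windows of this length, 1.79% held the full element, 20.8% the half-site and 0.253% the Gli site. RefSeq gave 12 windows for 8 members and none for Adcy8. Besides Rapgef3, the half-site stood in 1 Pde4b window, at base -34, and in the Adrb1 window, at base -90. The Pde4b windows, on the plus strand, also lay far inside the gene. The first began at 102421305, and the gene begins at 102087332. No window of a member held the full element or the Gli site. The G and C content was 65% in the Rapgef3 window and 55.7% in the Pde7b window, against a median of 52.7%.

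Among the cAMP sensors, Rapgef3 was high in both forebrain regions and low in cerebellum. It encodes Epac1, an exchange factor that loads Rap proteins with GTP when it binds cAMP. On the SVZ arrays 1 to 5 it read 8.88, 9.95, 9.77, 8.62 and 9.10. On the hippocampus arrays it read 9.21, 8.31, 9.15, 9.47 and 9.53, and on the cerebellum arrays 6.35, 5.33, 3.09, 4.37 and 4.95. Every SVZ and hippocampus array was thus above every cerebellum array, and the cerebellum arrays were the most spread. The means were 9.26 ± 0.57 in SVZ, 9.13 ± 0.49 in hippocampus and 4.82 ± 1.21 in cerebellum (SD, n = 5). Against cerebellum the log2 difference was 4.45 ± 0.49 in SVZ, which is 21.8-fold, and 4.32 ± 0.49 in hippocampus, which is 19.9-fold. SVZ and hippocampus lay within 0.13 ± 0.49 of each other, less than the spread of either. Without cerebellum 4 and 5, the arrays with the least spike-in signal, the Rapgef3 differences were 4.34 and 4.21, and with the spike-in level as a covariate 4.07 and 3.96.

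Rapgef3 was covered by 5 probe sets, and all 5 were higher in SVZ and in hippocampus than in cerebellum. The probe set used had the highest mean. The next brightest had means of 8.06 ± 0.50 and 7.99 ± 0.23 in SVZ and hippocampus against 4.34 ± 0.83 in cerebellum. Its differences were 3.72 and 3.65, with no overlap between forebrain and cerebellar arrays. A dimmer set also had no overlap, at 2.23 in SVZ and 2.31 in hippocampus. The remaining sets differed by 1.14 and 0.74, and by 0.30 and 0.68, with overlapping arrays in cerebellum and forebrain. These last sets read at most 2.41 in any region mean. With the mean of all its probe sets the Rapgef3 difference was 2.37 in SVZ and 2.34 in hippocampus.

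**Figure D2:**
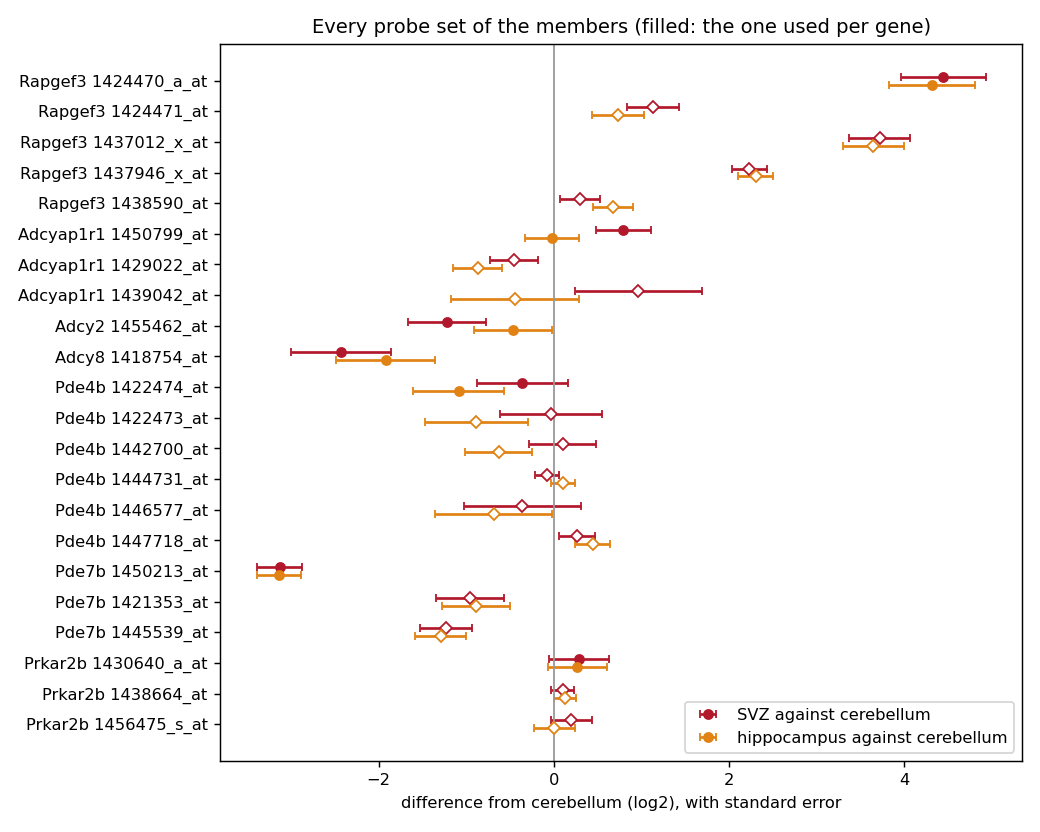
Log2 difference (axis in log2 units) of each probe set of the 7 members for SVZ and for hippocampus against cerebellum, with bars for the SE and filled points for the probe set used per gene. All 5 Rapgef3 probe sets lie above 0 and all 3 Pde7b probe sets below 0 in both comparisons, whereas those of Pde4b lie on both sides of 0.

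The receptor Adcyap1r1 was expressed in all 3 regions, with the highest mean in SVZ. It encodes PAC1, the receptor for PACAP, which couples to adenylyl cyclase. It read 7.34, 7.07, 7.60, 8.23 and 7.03 in SVZ, 6.04, 6.66, 7.19, 6.38 and 6.93 in hippocampus, and 6.22, 6.85, 6.45, 7.57 and 6.20 in cerebellum. The arrays of the regions overlapped, with hippocampus 3 and cerebellum 4 inside the SVZ range. SVZ was higher by 0.80 ± 0.31 against cerebellum and by 0.81 ± 0.31 against hippocampus. Hippocampus and cerebellum, at 6.64 ± 0.45 and 6.66 ± 0.57 (SD, n = 5), differed by -0.02 ± 0.31, less than their spread. The other 2 probe sets of Adcyap1r1 were also higher in SVZ than in hippocampus, by 0.41 and 1.41. Against cerebellum they did not share a direction in SVZ, at -0.45 and 0.97. In hippocampus both were lower than in cerebellum, by -0.87 ± 0.28 and -0.44 ± 0.73. The near equality of hippocampus and cerebellum thus holds for the probe set used only.

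The 2 adenylyl cyclases of the set had their highest means in cerebellum. Adcy8 encodes a cyclase that calcium and calmodulin activate. It read 3.91, 4.56, 3.94, 4.69 and 3.21 in cerebellum, and 1.01, 2.53, 1.04, 2.06 and 1.51 in SVZ, all below the cerebellar range. In hippocampus it read 1.17, 1.24, 1.31, 2.52 and 4.47, where only hippocampus 5 reached the cerebellar range and 3 arrays were near the background. The Adcy8 difference from cerebellum was -2.43 ± 0.57 in SVZ and -1.92 ± 0.57 in hippocampus, and leaving out any 1 array moved the latter between -2.50 and -1.68. Since Adcy8 was near the array medians on several forebrain arrays, these sizes are not firm. SVZ and hippocampus differed by -0.51 ± 0.57.

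Adcy2 encodes a cyclase that G protein beta-gamma subunits stimulate, and its levels overlapped between regions. It read 6.03, 4.43, 4.79, 5.98 and 5.06 in SVZ, 5.59, 4.84, 6.16, 7.38 and 6.06 in hippocampus, and 6.91, 6.90, 6.78, 6.05 and 5.73 in cerebellum. The order of the means was cerebellum, hippocampus, SVZ, at 6.47 ± 0.55, 6.01 ± 0.93 and 5.26 ± 0.72 (SD, n = 5). The highest single value was hippocampus 4, above every cerebellum array. Against cerebellum the difference was -1.22 ± 0.45 in SVZ and -0.47 ± 0.45 in hippocampus, and the 2 forebrain regions differed by -0.75 ± 0.45. With the spike-in level as a covariate the Adcy2 differences were -2.23 in SVZ and -1.43 in hippocampus, and with quantile normalization -0.84 and -0.01. Each cyclase was covered by 1 probe set, so no cross-check within the array was at hand.

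Of the phosphodiesterases, Pde7b was above background in cerebellum only. It encodes an enzyme that breaks down cAMP and not cyclic GMP. It read 5.09, 4.34, 4.68, 3.66 and 3.74 in cerebellum, 1.44, 1.43, 1.11, 0.87 and 1.01 in SVZ, and 1.5, 1.22, 0.89, 1.24 and 0.98 in hippocampus. No forebrain array reached the cerebellar range, and the forebrain arrays lay about the array medians. The Pde7b difference from cerebellum was -3.13 ± 0.26 in SVZ and -3.14 ± 0.26 in hippocampus, with no firm size because one side is near the background. The means of SVZ and hippocampus, 1.17 ± 0.25 and 1.17 ± 0.24, differed by less than their spread. The other 2 Pde7b probe sets were dimmer and also lower in both regions, by -1.23 and -0.96 in SVZ and by -1.29 and -0.89 in hippocampus, with arrays that overlapped. With the mean of all its probe sets Pde7b stood at -1.77 in both comparisons, and with the spike-in covariate at -3.65 in SVZ and -3.64 in hippocampus.

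Pde4b, which encodes another cAMP-specific phosphodiesterase, was present in every region at overlapping levels. It read 3.04, 5.13, 6.02, 4.86 and 5.38 in SVZ, 5.06, 4.83, 3.54, 3.23 and 4.13 in hippocampus, and 4.36, 5.69, 4.81, 5.74 and 5.62 in cerebellum. The arrays of all 3 regions overlapped. Against cerebellum the difference was -0.36 ± 0.52 in SVZ and -1.09 ± 0.52 in hippocampus, and SVZ was above hippocampus by 0.73 ± 0.52. The SVZ difference ran from -0.64 to 0.10 when single arrays were left out. Its 5 further probe sets differed from cerebellum by -0.36 to 0.26 in SVZ and by -0.88 to 0.44 in hippocampus.

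Prkar2b, the gene of a regulatory subunit of protein kinase A, was near the background in every region. It read 1.59, 1.34, 1.06, 1.13 and 1.05 in SVZ, 2.79, 0.64, 0.78, 1.20 and 0.66 in hippocampus, and 1.1, 0.89, 0.51, 1.1 and 1.12 in cerebellum. Hippocampus 1 alone stood out. The differences of Prkar2b were 0.29 ± 0.34, 0.27 ± 0.34 and 0.02 ± 0.34 for SVZ against cerebellum, hippocampus against cerebellum and SVZ against hippocampus. Its 2 further probe sets lay at or below a mean of 0.96 in every region.

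A gene was called where its adjusted p over all 18193 genes was under 0.05 in the limma fit. In SVZ against cerebellum 1 of the 7 members, Rapgef3, was called higher and 2, Adcy8 and Pde7b, were called lower, where 1.03% of all genes were called higher and 4.47% lower. In hippocampus against cerebellum Rapgef3 was called higher and Pde7b lower, where 0.808% of all genes were called higher and 3.97% lower. In SVZ against hippocampus 0 members were called, and 0.022% of all genes were. The arrays did not overlap for 3 members in SVZ against cerebellum (8.62% of all genes), for 2 in hippocampus against cerebellum (7.98%) and for 0 in SVZ against hippocampus (0.813%). Both comparisons with cerebellum share the cerebellum arrays. These contrasts chose the members, so nothing is read from their calls or from the shares.

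Other genes of the pathway were taken from a list of 138 by role, of which 126 were measured. The list was written with earlier results of these arrays known, so its shares are not independent of them. In SVZ against cerebellum 0 were called higher, 10 lower and 116 neither, so that 7.94% were called lower against the 4.47% of all genes. In hippocampus against cerebellum 1 was called higher, 10 lower and 115 neither, again 7.94% lower against 3.97%. At an unadjusted p under 0.05 the limma fit put 15 listed genes above and 20 below cerebellum in SVZ, and for hippocampus 13 above and 23 below. The median difference of the list was 0.14 in SVZ and 0.10 in hippocampus, and over all genes it was 0.07 in both. The arrays did not overlap for 12 listed genes in SVZ (9.52%) and for 11 in hippocampus (8.73%), near the 8.62% and 7.98% of all genes. In SVZ against hippocampus 0 of 126 were called in the limma fit, with 9 at an unadjusted p under 0.05 and a lowest adjusted p of 0.538. Ezr was the 1 gene with no overlap there (0.794%, against 0.813% of all genes). The fit used a shared spread, whereas the median SD of genes with a mean above 3 was 1.00 in SVZ and in hippocampus and 0.48 in cerebellum. The lack of calls between SVZ and hippocampus therefore does not show that these regions are alike. The share of all genes at an unadjusted p under 0.05 is not given, so those counts have no background.

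**Figure D3:**
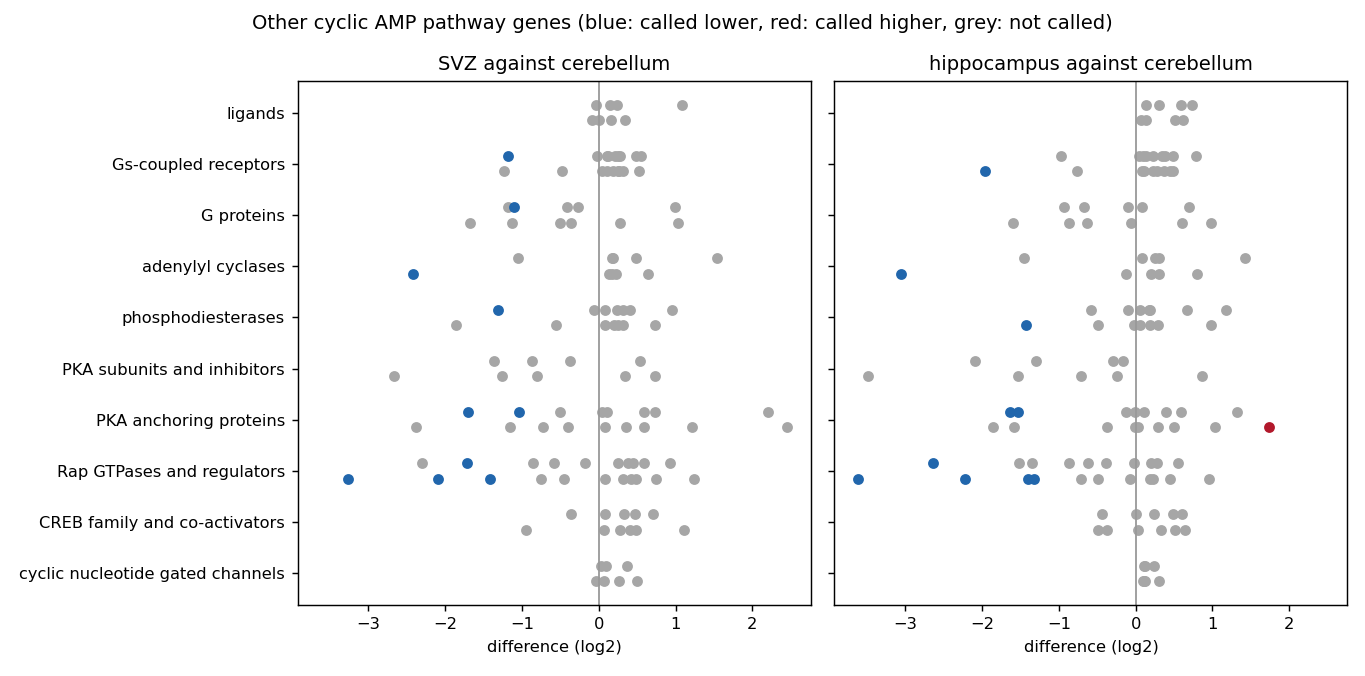
Log2 difference of the 126 measured pathway genes by role, for SVZ and for hippocampus against cerebellum. Blue points are genes called lower by the limma fit, red called higher and grey not called, and the differences run from -3.26 to 2.45 in SVZ and from -3.62 to 1.74 in hippocampus.

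The Rap group held the GTPases downstream of Epac, their activators and inactivators, and Apbb1ip, Rassf5 and Krit1, which are neither. By genes measured it was the largest group by role. Of 21 measured, 4 were lower in SVZ and 5 in hippocampus, where 4.47% and 3.97% of all genes were. Rap2a, a small GTPase, had a mean of 3.15 ± 1.29 in SVZ, 2.79 ± 0.74 in hippocampus and 6.41 ± 0.40 in cerebellum (SD, n = 5), and no forebrain array of Rap2a reached the cerebellar range. It was lower than in cerebellum by -3.26 ± 0.53 for SVZ (adjusted p = 0.00223), and for hippocampus by -3.62 ± 0.53 (adjusted p = 0.000919). Rap1a, a GTPase that Epac activates, was lower as well, in SVZ by -1.71 ± 0.34 (adjusted p = 0.00913) and in hippocampus by -1.40 ± 0.34 (adjusted p = 0.0304). Rapgef2, an exchange factor for Rap, had differences of -1.41 ± 0.35 (SVZ, adjusted p = 0.0314) and -1.32 ± 0.35 (hippocampus, adjusted p = 0.0476). Rasgrp1, an exchange factor for Ras and Rap that calcium and diacylglycerol control, stood at -2.09 ± 0.57 (adjusted p = 0.0467) and -2.22 ± 0.57 (adjusted p = 0.0390). Rap2c was lower in hippocampus at -2.64 ± 0.68 (adjusted p = 0.0412) and stood at -2.31 ± 0.68 in SVZ (adjusted p = 0.0667). Rap1a and Rapgef2 were chosen after their values were seen, to complete the count.

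Of these Rap group calls, that of Rap2a held in both regions when any single array was left out, as did that of Rap1a in SVZ. With the mean of its probe sets Rap2a was still called, at -1.94 and -2.06. With quantile normalization the Rap1a call was lost in SVZ at -1.24 (adjusted p = 0.0618) and in hippocampus at -0.85 (adjusted p = 0.266). With the mean of its probe sets Rap1a stood at -0.91 in hippocampus (adjusted p = 0.0227). Quantile normalization also ended the calls of Rapgef2 (adjusted p = 0.127 in SVZ and 0.167 in hippocampus), Rasgrp1 (0.219 and 0.227) and Rap2c (0.150). With the mean of its probe sets Rap2c stood at -1.32 (adjusted p = 0.111). Rapgef2 and Rasgrp1 were near the background in the forebrain, with means of 1.29 and 1.73 in SVZ, so their sizes are not firm. The Rap1a call in hippocampus was lost without any one of hippocampus 4 or 5 or of the 5 cerebellum arrays, with adjusted p from 0.0527 to 0.0670. The Rapgef2 call in SVZ was lost without any one of SVZ 1, 2 or 4 or cerebellum 1, 4 or 5 (0.0639 to 0.0826). In hippocampus the Rapgef2 call was lost without any one of SVZ 2, hippocampus 1, 3 or 4, or cerebellum 1, 3, 4 or 5 (0.0562 to 0.119). The Rasgrp1 call in SVZ was lost without any one of the 5 SVZ arrays, hippocampus 1, 4 or 5, or cerebellum 1, 3, 4 or 5 (0.0511 to 0.106). In hippocampus the Rasgrp1 call was lost without any one of SVZ 2, hippocampus 1, 2, 4 or 5, or cerebellum 1, 3, 4 or 5 (0.0517 to 0.0908). The Rap2c call was lost without any one of SVZ 2, hippocampus 3, 4 or 5, or the 5 cerebellum arrays (0.0517 to 0.0997).

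Among proteins that anchor protein kinase A, 2 of 17 were lower in SVZ, and 1 was higher and 2 lower in hippocampus. Cmya5, which encodes the muscle anchoring protein myospryn, read 2.51 ± 0.78 in cerebellum and was near the background in SVZ and hippocampus, at -1.71 ± 0.30 (adjusted p = 0.00436) and -1.64 ± 0.30 (adjusted p = 0.00572). Map2, a microtubule-associated protein of dendrites, was lower in SVZ by -1.03 ± 0.28 (adjusted p = 0.0434) and in hippocampus by -1.53 ± 0.28 (adjusted p = 0.00468). The SVZ call of Map2 was lost without any one of SVZ 1, 2, 4 or 5, hippocampus 2, 3 or 4, or the 5 cerebellum arrays (adjusted p from 0.0512 to 0.106). With quantile normalization neither Map2 call passed, at -0.67 for SVZ (adjusted p = 0.301) and at -1.11 for hippocampus (adjusted p = 0.0712). With its probe sets averaged Map2 stood at -0.59 (adjusted p = 0.157) and -0.99 (adjusted p = 0.0250). Ezr, the gene of the membrane linker ezrin, was higher by 1.74 ± 0.44 in hippocampus (adjusted p = 0.0379), whereas the SVZ difference was 0.59 ± 0.44 (adjusted p = 0.462). The Ezr call was lost without any one of SVZ 2, hippocampus 1, 2, 3 or 4, or cerebellum 1, 2, 3 or 4 (adjusted p from 0.0514 to 0.1). Ezr stood at 0.94 with its probe sets averaged (adjusted p = 0.0259) and at 2.71 with the spike-in covariate (adjusted p = 0.0114).

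Upstream of cAMP, 1 of 18 measured receptors was lower in each region, where 4.47% and 3.97% of all genes were. In SVZ this was Calcrl, the calcitonin receptor-like receptor, at -1.19 ± 0.29 (adjusted p = 0.0295), with -0.98 ± 0.29 in hippocampus (adjusted p = 0.0764). The Calcrl call was lost without any one of SVZ 2, 3, 4 or 5 or cerebellum 3, 4 or 5 (adjusted p from 0.0504 to 0.0748), and with the mean of its probe sets Calcrl stood at -0.33 (adjusted p = 0.165). Its SVZ mean was near the background, at 1.02 ± 0.24. In hippocampus it was Gpr37l1, an orphan receptor of astroglia, at -1.97 ± 0.36 (adjusted p = 0.00466), with -1.24 ± 0.36 in SVZ (adjusted p = 0.0578). Gpr37l1 was bright in every region, at 7.91 ± 0.19 in SVZ, 7.19 ± 0.89 in hippocampus and 9.15 ± 0.44 in cerebellum. Of 11 genes for G protein subunits and their helpers, Gnai3, an inhibitory subunit, was lower in SVZ by -1.11 ± 0.21 (adjusted p = 0.00660). It stood at -0.67 ± 0.21 in hippocampus (adjusted p = 0.0900). With quantile normalization Gnai3 stood at -0.64 in SVZ (adjusted p = 0.143), and with the mean of its probe sets at -0.60 (adjusted p = 0.0267). Of 8 measured ligands none passed in either region, and the smallest unadjusted p was that of Sct, the secretin gene, at 1.08 ± 0.38 in SVZ (adjusted p = 0.116).

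All calls in this paragraph were lower, where 4.47% of all genes were called lower in SVZ and 3.97% in hippocampus. The cyclase group other than Adcy2 and Adcy8 had 1 called gene of 10 in each comparison with cerebellum, and it is not a cyclase. Cap2 encodes a cyclase-associated protein that acts on actin. Its means were 8.54 ± 0.35 in cerebellum, 6.12 ± 0.96 in SVZ and 5.48 ± 1.11 in hippocampus. The SVZ difference was -2.42 ± 0.52 (adjusted p = 0.0141) and the hippocampus difference -3.06 ± 0.52 (adjusted p = 0.00306). Of 14 further genes listed with the phosphodiesterases, not all of them enzymes, only Pde3a, whose product cyclic GMP inhibits, was called. It stood at -1.31 ± 0.28 in SVZ (adjusted p = 0.0145) and at -1.43 ± 0.28 in hippocampus (adjusted p = 0.00869). Its highest region mean was 2.71 ± 0.54, in cerebellum, while SVZ and hippocampus were near the background at 1.40 ± 0.50 and 1.28 ± 0.29, and with the mean of its probe sets Pde3a stood at -0.48 (adjusted p = 0.235) and -0.62 (adjusted p = 0.135). None of the 9 genes for protein kinase A subunits and inhibitors passed, and the smallest p was that of the catalytic subunit Prkacb in hippocampus, at -2.09 ± 0.58 (adjusted p = 0.0577). None of 11 genes of the CREB group passed, with Creb1 at -0.95 ± 0.34 in SVZ (adjusted p = 0.129). None of 7 cyclic nucleotide gated channels passed, with Hcn3 at 0.50 ± 0.18 in SVZ (adjusted p = 0.128). All 7 were near the background, with no region mean above 1.26, so a difference in them could hardly be seen.

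Fewer genes of the pathway list were called lower with the spike-in level as a covariate and without cerebellum 4 and 5. The spike-in level itself averaged 12.56 in SVZ, 12.46 in hippocampus and 10.28 in cerebellum. The covariate and the regions therefore cannot be fully told apart. Leaving out arrays also lowers the precision, and counts over all genes under these settings are not given. With the spike-in level as a covariate, 0 listed genes were lower in SVZ and 2 in hippocampus, Cap2 and Rap2a. The differences of the genes reported as lower kept their sign, at -2.98 (Rap2a) to -0.87 (Calcrl) in SVZ and -3.38 (Cap2) to -1.13 (Rap1a) in hippocampus, and some were larger, such as Cap2 at -2.76 and Rasgrp1 at -2.53 in SVZ. Without cerebellum 4 and 5, 1 listed gene, Rap2a, was lower in SVZ, and 3, Cap2, Map2 and Rap2a, in hippocampus. The differences then were -3.33 (Rap2a) to -0.95 (Gnai3) in SVZ and -3.69 (Rap2a) to -1.13 (Rapgef2) in hippocampus, with Cap2 at -2.50 and Rap1a at -1.76 in SVZ.

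Markers of other cell types were read on the same arrays. Their calls stand beside 1.03% of all genes called higher and 4.47% called lower in SVZ. In hippocampus these shares were 0.808% and 3.97%. The mean over 12 of 13 microglia markers was 3.15 to 6.01 on the SVZ arrays, 2.79 to 5.15 on the hippocampus arrays and 1.41 to 2.67 on the cerebellum arrays, with 5 called higher in SVZ and 2 in hippocampus. The mean over 7 oligodendrocyte precursor markers was 1.94 to 2.74, 1.80 to 1.90 and 0.94 to 1.15, with 2 called higher in SVZ and 1 in hippocampus. Of the precursor markers Olig1 was the brightest, at 6.27 ± 0.35, 5.77 ± 0.59 and 1.75 ± 0.40, while 3 were at or below the array medians in SVZ, and the oligodendrocyte marker Cnp was lower by -2.02 ± 0.26 in SVZ and -2.97 ± 0.26 in hippocampus. The microglia list and Olig1 were high where Rapgef3 was high, as was the pericyte gene Pdgfrb in SVZ, at 2.88 ± 0.62 above cerebellum. The mean over 10 cerebellar neuron markers was 2.47 to 3.25 in cerebellum, against 1.13 to 1.84 in SVZ and 1.09 to 2.29 in hippocampus, with 4 called lower in SVZ and 2 in hippocampus. That list was high where Pde7b, Adcy8 and the lower genes of the pathway list were high. Its brightest genes in cerebellum were Zic1 at 8.01 ± 0.53 and Pcp4 at 7.09 ± 0.64, and the Purkinje cell gene Pcp2 read 3.21 ± 1.37. The granule cell gene Gabra6 was near the background there at 0.95, as were Cbln1, Cbln3 and Neurod1 at 1.24, 1.44 and 1.11, and Car8 read 2.84 ± 1.66 in SVZ against 2.24 ± 0.33 in cerebellum. Neither general neuron markers, with 11 measured, nor endothelial markers, with 8, had a called gene. The mean of 7 pericyte and smooth muscle markers was 2.07 to 5.19, 2.76 to 4.86 and 1.95 to 3.04. The mean of 7 choroid plexus markers was 1.669 to 2.596 in SVZ, 2.513 to 7.984 in hippocampus and 1.89 to 7.294 in cerebellum. None of these 7 was called against cerebellum, and the list was uneven between arrays. It was highest on hippocampus 2 (7.984), cerebellum 5 (7.294) and hippocampus 5 (6.46). On these 3 arrays Adcy8 read 1.24, 3.21 and 4.47. The arrays SVZ 2 and hippocampus 2 had the highest endothelial means (3.11 and 3.01) and pericyte means (5.19 and 4.86), and the least spike-in signal of their regions (11.04 and 11.51), and Rapgef3 was the highest of its region on the former and the lowest on the latter. The part of these cells in the differences of the members was not tested.

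**Figure D4:**
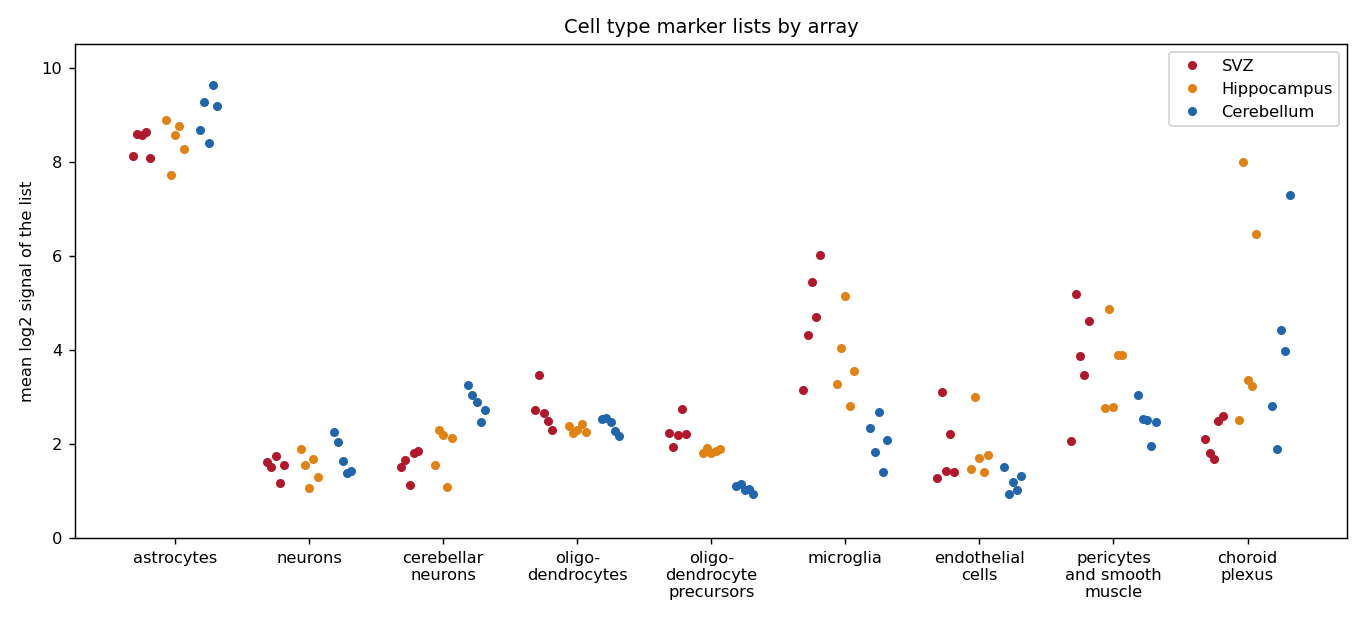
Mean log2 signal of 9 cell type marker lists on each array, by region, with points for arrays. The astrocyte list lies at 7.71 or above on every array, the microglia list reaches 6.01 on an SVZ array and at most 2.67 in cerebellum, and the cerebellar neuron list is at 2.47 or above on every cerebellum array.

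For each member the 2 genes with the most similar pattern were found among 4775 genes with a mean level above 3. Likeness was the root mean square difference, over the 15 arrays, of log2 values centred on each gene's mean, so that a smaller value is closer. Closest to Rapgef3 were Gria2, an AMPA receptor subunit, at 0.64 and Bcan, the brain proteoglycan brevican, at 0.67. Gria2 had means of 7.42 ± 0.72 in SVZ, 7.45 ± 0.64 in hippocampus and 3.67 ± 0.55 in cerebellum, and Bcan 8.38 ± 0.39, 7.87 ± 0.66 and 4.49 ± 0.84. Both were thus high in the forebrain regions and low in cerebellum. Closest to Pde7b were Fabp7, a fatty acid carrier, at 0.51 and Scrn1 at 0.56. Fabp7 read 9.59 ± 0.31, 9.34 ± 0.49 and 12.05 ± 0.13 in the same order of regions. For Adcy8 they were Cnrip1 at 0.53 and Samd4 at 0.59, with Cnrip1 at 2.96 ± 0.61, 3.71 ± 0.91 and 5.54 ± 0.21.

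The other members had small regional differences, and genes with little change on these arrays come out close to them by this measure. Closest to Adcyap1r1 were Svs5 at 0.40 and Camk2g at 0.41. For Adcy2 they were Nemf at 0.43 and Taf13 at 0.46, for Pde4b Epc1 at 0.45 and Ddx42 at 0.46, and for Prkar2b Cntd1 at 0.40 and Kmt2e at 0.40. With quantile normalization 10 of the 14 pairs were kept, and with values centred on each region's mean 3 were. These 3 were Adcy2 with Taf13, Adcy8 with Samd4 and Pde4b with Epc1. No pair of Rapgef3 or Pde7b was kept once the differences between regions were taken out.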

How the data were processed

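The 15 Affymetrix mouse expression arrays were grouped by their titles. Per the submitters' processing notes the authors applied RMA, and the deposited signal was taken as log2, since no log base is named and the values reach 15.08. Its version is not stated in the sources used, and no detection calls were used. Per the labels' protocols, RNA was amplified with WT-Ovation Pico before labelling.

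Of 45101 probe sets, 34958 carried 1 gene symbol, 932 several, and 9211 had no entry. Entrez identifiers gave the current symbol for 34754, and 64 control sets were left out. Each of 18193 genes was represented by its brightest probe set on average over all arrays, chosen from several for 9010 genes. Members and lists were chosen with earlier results of these data known. Region was fitted over all arrays with limma 3.58.1 (R 4.3.3, data.table package 1.17.8) and Benjamini-Hochberg adjustment over all genes. The fit was tried on simulated data with the same spread in every region, which does not test it under the unequal spread of these arrays. Members are described, and their calls are not read as tests. In the pathway list, per role and comparison, the 2 largest called differences each way were named, or the smallest unadjusted p where none was called. Alternatives used a replicate block, other normalizations, filters, probe set rules, spread models, thresholds and covariates, and leaving out arrays. The number of arrays limits the precision. Plots came from matplotlib 3.10.9 under Python 3.11.15.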

Additional observations from a re-analysis of the deposited data

Results flagged for a closer look

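In 3 of 72 groups of 5 arrays, each one gene in one region, the highest array stood apart from the rest, with a gap to the next array that was a large part of the group's whole range (Dixon's ratio). Chance gives about 1 in 20 such groups. For Prkar2b, hippocampus 1 read 2.79 where the others read 0.64 to 1.20, a ratio of 0.74. For Rasgrp1, hippocampus 3 read 4.11 where the others read 0.78 to 1.16, a ratio of 0.886. For Rap1a, cerebellum 1 read 6.15 where the others read 5.83 to 5.90, a ratio of 0.781.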

How the results depend on the processing

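The differences of Rapgef3, Adcy8 and Pde7b from cerebellum kept their sign in both regions, and no called pathway gene reversed under the alternatives run. Differences that were not called crossed 0 for Pde4b in SVZ (-0.64 to 0.33), for Adcyap1r1 (-0.44 to 0.43) and Prkar2b (-0.12 to 0.41) in hippocampus, and for Rapgef3, Adcy8, Pde7b and Prkar2b in SVZ against hippocampus. Counts of pathway genes called need not hold the same genes. Genes lower in SVZ, 10 as reported, numbered 6 with the replicate block, 5 with quantile normalization, 5 at more than 4-fold and an unadjusted p under 0.01 (3 shared with the 10), 4 at an adjusted p under 0.01, 1 without cerebellum 4 and 5, 0 once the spike-in level was a covariate, and 6 to 10 without single arrays. Genes higher in SVZ, 0 as reported, numbered 1 with the replicate block, 2 with probe sets averaged per gene, 1 without cerebellum 4 and 5, and 0 to 1 without single arrays. Genes lower in hippocampus, 10 as reported, numbered 5 with quantile normalization, 6 at the 4-fold threshold (4 shared), 6 at an adjusted p under 0.01, 3 without cerebellum 4 and 5, 2 when the spike-in level was a covariate, and 6 to 13 without single arrays. Genes higher in hippocampus, 1 as reported (Ezr), numbered 2 with the replicate block (0 shared), 2 with probe sets averaged, 0 to 2 without single arrays, and 0 with a trended and robust spread, with only the groups compared, at the 4-fold threshold, at an adjusted p under 0.01 and without SVZ 1 and hippocampus 3. With array weights that count was 1, with 0 shared, and Ezr had an adjusted p of 0.0806.

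Of the 14 pairs of genes alike in pattern, 3 were kept with values centred on each region's mean. The replicate numbers were not taken to pair the arrays. The correlations of the deviations of same-numbered arrays ran from -0.121 to 0.138, which does not show that they are unpaired. SVZ 2 and hippocampus 2 both had the least spike-in signal and the highest endothelial and pericyte means of their regions. Cerebellum 2 had the lowest endothelial mean of its region. With the replicate block the calls of Calcrl, Map2, Rapgef2 and Rasgrp1 in SVZ and of Ezr, Rap2c, Rapgef2 and Rasgrp1 in hippocampus did not pass. Member differences moved by more than 1 SD with the mean of probe sets (Rapgef3 2.37 and 2.34, Pde7b -1.77 and -1.77) and the spike-in covariate (Adcy2 -2.23 and -1.43, Pde7b -3.65 and -3.64), in SVZ and hippocampus. The cause was not tested. Signal near the background limits the sizes given for Pde7b, Adcy8 and Prkar2b. The same holds for Calcrl, Cmya5, Hcn3, Pde3a, Rapgef2 and Rasgrp1 of the pathway list.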
